A study of Mus musculus with 6 samples.

Results

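Messenger RNA of the vacuolar proton pump was followed through 10 genes, taken as 5 pairs of paralogs that encode alternative forms of the same subunit. In each pair 1 gene is known as the form of intercalated cells (Atp6v1b1, Atp6v0d2, Atp6v1g3, Atp6v0a4 and Atp6v1c2) and the other as the ubiquitous form (Atp6v1b2, Atp6v0d1, Atp6v1g1, Atp6v0a1 and Atp6v1c1). They were picked by symbol from 56923 gene identifiers, and all 10 were among the 18273 genes with enough reads to test. The samples were 6 whole, snap-frozen kidneys of male mice at 10 weeks of age. The 3 kidneys called Pkd1 KO came from Pkd1flox/flox.Pax8rtTA.Tet-O-Cre mice, in which doxycycline switches on Cre through an activator under the Pax8 promoter, so that floxed Pkd1 is deleted in tubule cells. The 3 controls were Pkd1flox/flox.Tet-O-Cre mice that had the same floxed alleles and the Cre transgene but no Pax8rtTA. Both groups drank doxycycline at 2 mg/ml in 5% sucrose from postnatal day 28 to day 42, a course of 14 days. Pkd1 encodes polycystin-1, whose loss causes polycystic kidney disease.

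The vacuolar H+-ATPase is a rotary pump. Its cytosolic V1 sector hydrolyses ATP, and its membrane V0 sector carries protons across. Nearly every cell uses it to acidify lysosomes and endosomes. Intercalated cells of the collecting duct also place it at the plasma membrane, where it moves protons into the urine (type A cells) or toward the blood (type B cells), and they make it with dedicated forms of several subunits. Loss of the human B1 or a4 subunit causes distal renal tubular acidosis. The labels "intercalated-cell" and "ubiquitous" come from this background and not from the present samples: proximal tubule cells also use a4, and macrophages and osteoclasts also make d2.

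Gene counts per library were 45020173 to 62983791. The controls belonged to 1 sequencing project and the Pkd1 KO libraries to another, as the names of the count tables show, and whatever differs between the projects cannot be told apart from genotype. The controls were also the more spread group: on the first principal component, which held 70.4% of the variance of log2 CPM (gene counts scaled to the library total with TMM factors), they stood at −92.6, −58.1 and −24.2 (controls 2, 1 and 3), against 52.4 to 66.4 for the Pkd1 KO libraries. Pkd1 itself was lower in each Pkd1 KO library (8.77, 9.003 and 10.01 CPM) than in any control (30.01, 46.4 and 23.6 CPM). Fold changes ran along gene structure: the median log2 fold change was 0.51 in the 4447 genes of shortest exonic length and −0.41 in the 4446 longest, and it was 0.44 in the 4447 genes lowest in GC content and −0.47 in the 4446 highest. For that reason the members' fold changes are given from edgeR's quasi-likelihood test and again from the same test with an offset that models, library by library, how counts depend on GC content and exonic length (the offset fit). There the 4 medians lay between −0.07 and 0.004. The offset would also remove a true change shared by long or GC-rich genes. In the offset fit Pkd1 stood at −0.53 (adjusted p = 0.0112) in place of −1.85 (adjusted p = 0.00234).

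In the test without the offset, the calls of the members did not split by the intercalated-cell and ubiquitous labels. Of the 5 intercalated-cell forms 2 fell (Atp6v1b1 and Atp6v0a4), 1 rose (Atp6v1g3) and 2 were not called at an adjusted p of 0.05. The ubiquitous forms gave the same counts, with Atp6v1b2 and Atp6v0a1 lower, Atp6v1g1 higher and 2 not called. Over all tested genes 46.9% were called, 22.7% higher and 24.2% lower, so 6 of 10 members called is a share close to that of other genes. The median log2 fold change was −0.26 over the intercalated-cell forms and −0.01 over the ubiquitous forms, beside 0.03 over all tested genes. In 8 of the 10 members the values of 1 group lay wholly beyond those of the other, which was so for 61.2% of all tested genes. Pkd1 KO kidneys were the higher ones in 4 members and the lower ones in 4, against 31.2% and 30.0% of tested genes.

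With the offset the picture by label was different. Then 4 of the 5 intercalated-cell forms were called lower and none higher, while 1 ubiquitous form (Atp6v0a1) was lower and none higher. The offset fit called 34.5% of its 17785 genes, 15.0% higher and 19.5% lower. The medians were −0.57 for the intercalated-cell forms and −0.26 for the ubiquitous forms, beside −0.05 for all genes in that fit. Whether the 2 sets of forms differ as sets was not tested.

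**Figure D1:**
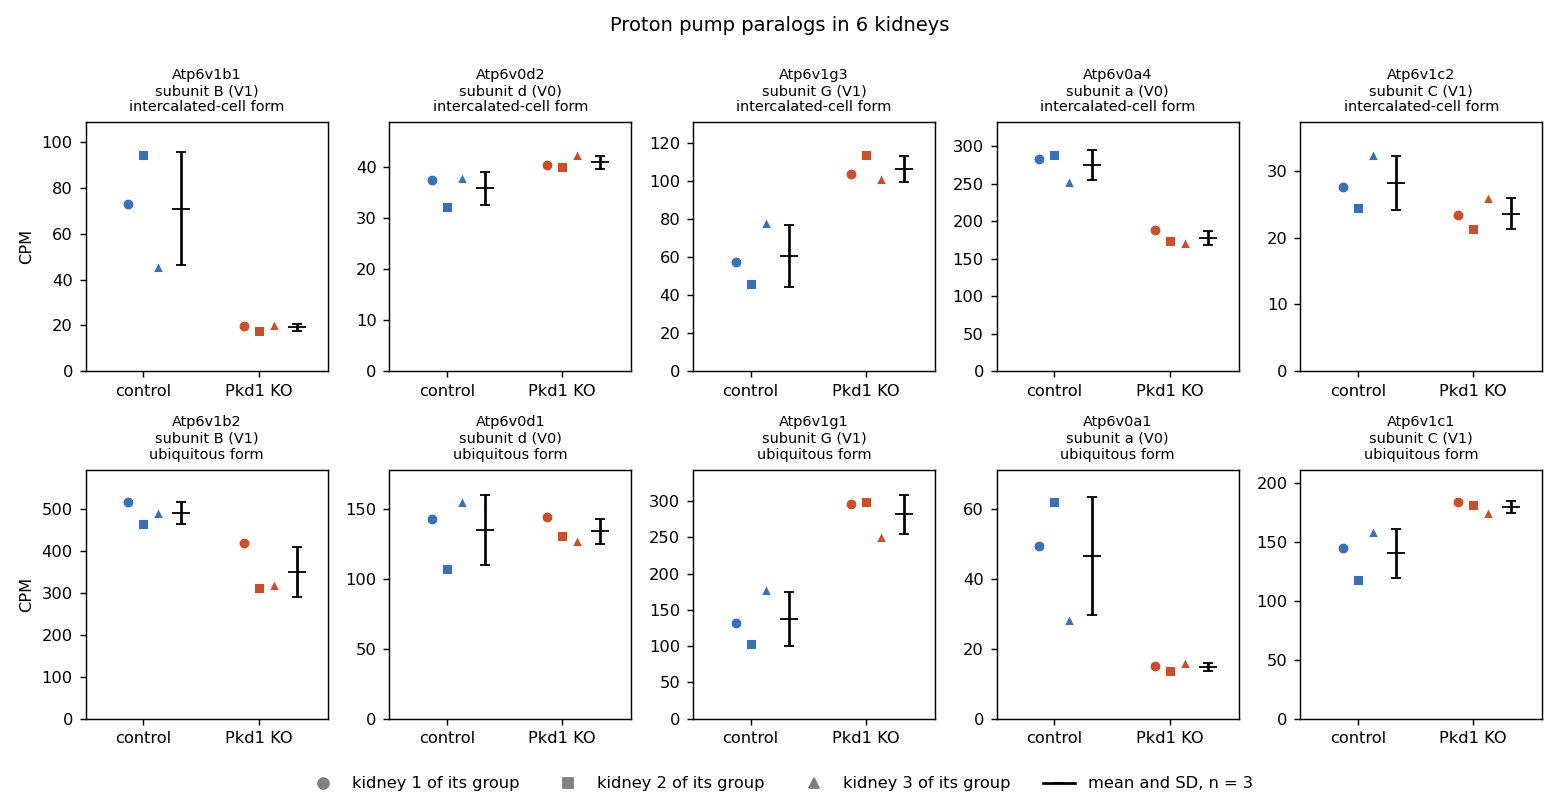
CPM of each of the 10 genes in each kidney (vertical axes start at 0), intercalated-cell forms in the upper row and ubiquitous forms in the lower. Points are kidneys and the bar is the mean with SD (n = 3). Both B forms and both a forms are lower in Pkd1 KO kidneys and both G forms are higher, while values of Atp6v0d1 and Atp6v1c2 overlap.

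**Figure D2:**
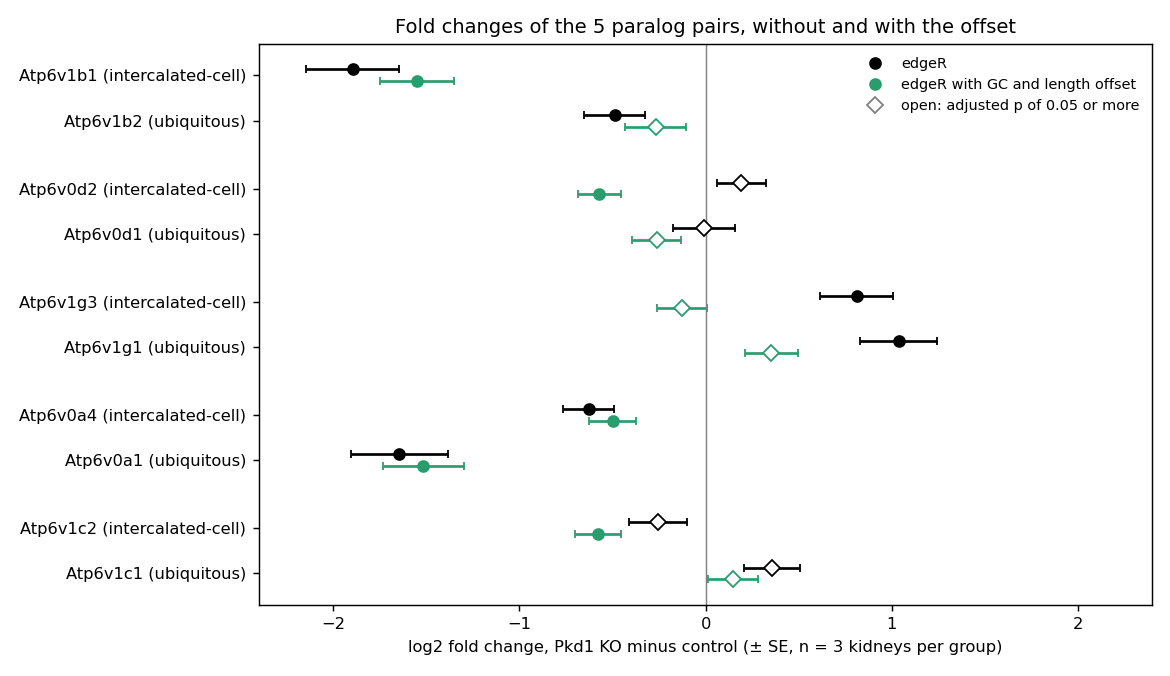
Log2 fold change with SE for each gene, without (black) and with (green) the offset for GC content and length. Atp6v1b1 and Atp6v0a1 lie below −1.5 in both, and Atp6v0d2 and Atp6v1g3 cross 0 between them.

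Levels were compared between genes as CPM per kilobase of exon. In controls the order from the highest was Atp6v1g1 (121 ± 33, SD), Atp6v1b2 (92.4 ± 4.8), Atp6v0d1 (75.2 ± 13.9), Atp6v0a4 (55.3 ± 4), Atp6v1g3 (32.02 ± 8.7), Atp6v1c1 (25.03 ± 3.7), Atp6v1b1 (16.2 ± 5.6), Atp6v0d2 (13.2 ± 1.2), Atp6v1c2 (12.96 ± 1.9) and Atp6v0a1 (7.09 ± 2.6). Thus the ubiquitous form was the more abundant transcript in 4 of the 5 pairs, and for subunit a the intercalated-cell form was. Neighbours in this order whose control kidneys overlapped were Atp6v1g1 with Atp6v1b2, and each successive pair from Atp6v1g3 down to Atp6v1c2. In Pkd1 KO kidneys Atp6v1g1 remained first (248 ± 24) and Atp6v0a1 last (2.27 ± 0.18), Atp6v1g3 stood above Atp6v0a4 (56.2 ± 3.6 against 35.8 ± 1.9), and Atp6v1b1 moved from seventh to ninth place (4.35 ± 0.32). The kidneys of that group overlapped only between Atp6v0d1 and Atp6v1b2 and between Atp6v1b2 and Atp6v1g3. All 3 controls also placed Atp6v0a4 above Atp6v1g3.

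Subunit B binds ATP together with subunit A in the V1 head. Atp6v1b1 (ENSMUSG00000006269, mouse chromosome 6) had the largest change among the members. It stood at 72.9, 94.6 and 45.3 CPM in the 3 controls, against 19.7, 17.4 and 20.05 CPM after Pkd1 deletion. Every Pkd1 KO kidney was below every control, and the controls differed among themselves by more than the Pkd1 KO kidneys did. Group means of 70.95 ± 24.7 and 19.1 ± 1.4 CPM (SD over 3 kidneys) gave a log2 fold change of −1.90 ± 0.25 (SE, adjusted p = 0.00234), or 3.72-fold lower. The offset fit gave −1.55 ± 0.20 (adjusted p = 0.00157), and the call held without any single kidney (−2.18 to −1.67, adjusted p at most 0.0220). In whole kidney, fewer cells of a type and less RNA per cell cannot be told apart, here or in any value that follows.

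The stretch upstream of Atp6v1b1 is shown because it is the strongest change and because Foxi1, a forkhead factor, is known as the master regulator of intercalated cells. It covers 250 bases before the RefSeq start and 10 after (chr6:83742767-83743026, GRCm38.p6, plus strand), with a forkhead motif in capitals:
Atp6v1b1: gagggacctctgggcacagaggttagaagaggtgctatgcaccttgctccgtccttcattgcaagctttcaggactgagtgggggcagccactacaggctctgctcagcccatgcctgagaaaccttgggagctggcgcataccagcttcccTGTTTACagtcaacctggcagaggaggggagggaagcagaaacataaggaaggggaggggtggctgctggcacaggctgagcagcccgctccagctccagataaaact
The motif searched was TGTTTAC on either strand, and its match began 98 bases before the start. RefSeq promoter windows were found for 6 of the 10 members (Atp6v1b1, Atp6v0a4, Atp6v1g3, Atp6v1c2, Atp6v0d1 and Atp6v0a1), and Atp6v1b1 alone among them held this motif, against 3.65% of all 32851 windows of 300 bases. The end of the Atp6v0a1 window, unlike those of the others, was in no GENCODE M21 transcript of its gene. A match is a description of letters and not a shown binding site.

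Atp6v1b2 (ENSMUSG00000006273, chromosome 8), the B form of lysosomes and endosomes in most cells, was the member with the most reads. It had 516, 465 and 491 CPM in controls and 419, 311 and 318 CPM in Pkd1 KO kidneys, so the groups did not overlap. The difference was −0.49 ± 0.16 (adjusted p = 0.0370), 1.40-fold lower. That was the only 1 of the 6 calls that leaving out a kidney ended: it was lost without control 1 (adjusted p = 0.102), without KO 2 (0.156) or without KO 3 (0.144), and in the offset fit (−0.27, adjusted p = 0.228).

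Because both genes of a pair were read in the same library, their ratio does not depend on library size. B1 made up 14.6%, 19.8% and 10.1% of B transcripts per length in controls and 5.38%, 6.36% and 7.10% in Pkd1 KO kidneys. The log2 ratio of Atp6v1b1 to Atp6v1b2 averaged −2.57 ± 0.57 and −3.91 ± 0.21 (SD, n = 3 each). It was thereby 1.33 lower in Pkd1 KO kidneys and did not overlap (exact permutation test, two-sided, p = 0.1, the smallest that 3 against 3 can give; 0.125 adjusted over the 5 pairs).

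Subunit a anchors the stator of the V0 sector and lines the path of the protons, and its form sets which membrane the pump goes to. Atp6v0a4 (ENSMUSG00000038600, chromosome 6) had 283, 289 and 252 CPM in controls and 189, 174 and 171 CPM in Pkd1 KO kidneys, every one of the latter lower. Its log2 fold change was −0.63 ± 0.14 (adjusted p = 0.00670), 1.54-fold lower, and the call stayed in the offset fit (−0.50 ± 0.12, adjusted p = 0.0134) and without any single kidney (adjusted p at most 0.0423). Of its exonic bases 5.21% are shared with D630045J12Rik on the same strand and 1.25% with Tmem213 on the other, where reads could not be assigned.

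Atp6v0a1 (ENSMUSG00000019302, chromosome 11), the ubiquitous a form, fell further than a4. Controls had 49.3, 61.9 and 28.3 CPM and Pkd1 KO kidneys 15.2, 13.6 and 15.9 CPM, again without overlap. The difference was −1.65 ± 0.26 (adjusted p = 0.00280), 3.13-fold lower, and −1.52 ± 0.22 in the offset fit (adjusted p = 0.00207). Atp6v0a1 and Atp6v1b1 took the same order over the kidneys, with control 2 highest, control 1 next and control 3 the lowest control, the order of the controls on the first principal component. As a description over 6 kidneys that share this axis, Pearson's r between them was 0.997. The a pair therefore moved against its label: a4 made up 88.3%, 86.01% and 92.2% of a transcripts per length in controls and 94.2%, 94.4% and 93.4% in Pkd1 KO kidneys. The log2 ratio rose from 3.03 ± 0.48 to 3.98 ± 0.13, by 0.95, with groups apart (exact permutation p = 0.1, adjusted 0.125).

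Subunit G is part of the peripheral stalks that hold the V1 sector still. Atp6v1g3 (ENSMUSG00000026394, chromosome 1) was the single intercalated-cell form with a called increase, from 57.6, 45.6 and 78.04 CPM in controls to 103, 114 and 101 CPM in Pkd1 KO kidneys. The lowest Pkd1 KO value stood above the highest control. Its log2 fold change was 0.81 ± 0.20 (adjusted p = 0.0102), 1.76-fold higher, but in the offset fit it was −0.13 ± 0.13 (adjusted p = 0.498), so that both sign and call depended on the offset. Atp6v1g3 is the member with the lowest GC content, 39.4%, and a short one, at 1887 exonic bases.

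Atp6v1g1 (ENSMUSG00000039105, chromosome 4), the ubiquitous G form, is the shortest member, with 1135 exonic bases. It had 132, 103 and 177 CPM in controls and 296, 299 and 251 CPM in Pkd1 KO kidneys, with no overlap. The difference was 1.04 ± 0.21 (adjusted p = 0.00493), 2.05-fold higher, and 0.35 ± 0.14 in the offset fit (adjusted p = 0.0793). Of its 50-base stretches 19.2% also occur in transcripts of Gm13453 or Gm12344, so part of its reads could map to more than 1 place and go uncounted. Both G genes had control 3 as the highest control and control 2 as the lowest, the reverse of Atp6v1b1 and Atp6v0a1. Their ratio was the steadiest of the 5 in controls, where G3 made up 20.8%, 21.1% and 20.9% of G transcripts per length. In Pkd1 KO kidneys it made up 17.3%, 18.6% and 19.5%, a fall of the log2 ratio by 0.22 (−1.92 ± 0.01 to −2.14 ± 0.11, exact permutation p = 0.1, adjusted 0.125). With the offset this difference was −0.47.

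Subunit C joins the V1 and V0 sectors and is released when the pump disassembles. Atp6v1c2 (ENSMUSG00000020566, chromosome 12) was the least counted intercalated-cell form in controls, with 27.7, 24.4 and 32.4 CPM in controls and 23.4, 21.3 and 25.96 CPM in Pkd1 KO kidneys. The groups overlapped and the difference was not called (−0.26 ± 0.16, adjusted p = 0.202). It was called without control 2 (−0.38, adjusted p = 0.0466) and in the offset fit (−0.58 ± 0.12, adjusted p = 0.00700). Atp6v1c1 (ENSMUSG00000022295, chromosome 15), the ubiquitous form, had 145, 117 and 158 CPM in controls and 184, 181 and 174 CPM in Pkd1 KO kidneys, each of the latter above each control. Its value of 0.36 ± 0.15 was not called (adjusted p = 0.0784), except without control 3 (0.40, adjusted p = 0.0370) and with upper-quartile scaling (0.52, adjusted p = 0.0306). In the offset fit it was 0.15 ± 0.14 (adjusted p = 0.427). Neither gene was called alone, though the groups were already apart in Atp6v1c1 by itself. C2 made up 32.95%, 34.9% and 34.6% of C transcripts per length in controls and 24.7%, 23.3% and 27.8% in Pkd1 KO kidneys, without overlap. The log2 ratio went from −0.95 ± 0.07 to −1.57 ± 0.17, lower by 0.62 (exact permutation p = 0.1, adjusted 0.125) and by 0.74 with the offset.

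Subunit d couples the rotor of V1 to the ring of V0. Atp6v0d2 (ENSMUSG00000028238, chromosome 4) had 37.4, 32.1 and 37.7 CPM in controls and 40.3, 39.9 and 42.3 CPM in Pkd1 KO kidneys. The latter were all higher, by little, and the difference was not called (0.19 ± 0.13, adjusted p = 0.251). In the offset fit the sign turned and the gene was called lower (−0.57 ± 0.12, adjusted p = 0.00607); its GC content is 41.6%. Atp6v0d1 (ENSMUSG00000013160, chromosome 8) differed least of the members in the test without the offset, with 143, 107 and 155 CPM in controls and 144, 131 and 127 CPM after deletion (log2 fold change −0.01 ± 0.17, adjusted p = 0.975). In the offset fit it was −0.26 ± 0.13 (adjusted p = 0.141). The d2 share of d transcripts per length was 14.8%, 16.5% and 13.8% in controls and 15.6%, 16.7% and 18.01% in Pkd1 KO kidneys, and these overlapped. The log2 ratio was 0.19 higher in Pkd1 KO kidneys (exact permutation p = 0.2, 0.2 after adjustment), and 0.31 lower with the offset.

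The start of Atp6v0d1 is shown beside that of Atp6v1b1 because many lysosomal genes carry a CLEAR element, the site that TFEB and its relatives bind, and Atp6v0d1 works in lysosomes. The stretch runs from 250 bases before the RefSeq start to 10 after (chr8:105566055-105566314, GRCm38.p6, minus strand, written in the direction of transcription), with the E-box core CACGTG in capitals:
Atp6v0d1: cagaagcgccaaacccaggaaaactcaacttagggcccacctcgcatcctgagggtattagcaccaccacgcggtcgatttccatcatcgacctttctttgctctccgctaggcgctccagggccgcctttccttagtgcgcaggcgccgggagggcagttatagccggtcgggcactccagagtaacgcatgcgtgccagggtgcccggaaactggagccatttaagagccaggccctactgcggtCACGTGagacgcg
The core, which reads the same on both strands, began 3 bases before the start. It was found in no other of the 6 member windows and in 7.15% of all windows, and it overlapped no forkhead match. Both motifs were searched in all 6 windows, and the stretches printed for Atp6v1b1 and Atp6v0d1 are the only ones with a match to either. Atp6v0d1 was not called, as given above.

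**Figure D3:**
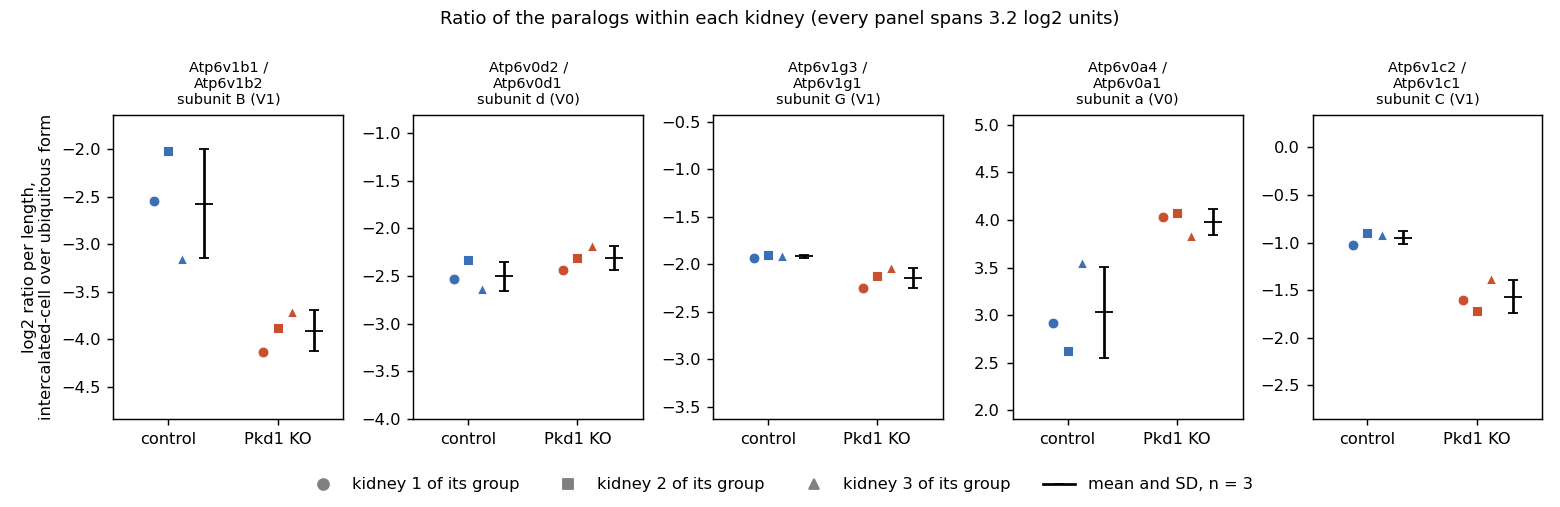
Log2 ratio of the intercalated-cell form to the ubiquitous form, per exonic length, in each kidney. Points are kidneys, bars are mean and SD (n = 3), and every panel spans the same range. The B, G and C ratios are lower in each Pkd1 KO kidney than in any control, the a ratio is higher, and the d ratio overlaps. The share of other gene pairs whose ratios keep the groups apart was not computed.

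Across the pairs, the ratio in Pkd1 KO kidneys thus lay further toward the ubiquitous form for B, G and C, by 2.52-fold, 1.17-fold and 1.54-fold, and toward the intercalated-cell form for a, by 1.93-fold. These 4 directions were the same with the offset, with either other pseudocount, and without any single kidney. How often ratios of other gene pairs keep the groups apart was not computed. Single genes did so in 61.2% of all tested, so separation of a ratio is not by itself particular to these pairs. The sum of both forms per length also differed by subunit and was not tested: B transcripts went from 109 ± 5.5 to 70.2 ± 11.6 CPM per kilobase and a transcripts from 62.4 ± 6.5 to 38.04 ± 1.9, whereas G transcripts went from 153 ± 41.7 to 305 ± 26.5. Sums for d (88.3 ± 15 and 89.8 ± 4.7) and C (37.99 ± 5.5 and 42.9 ± 0.73) differed by less than the spread of the controls. None of these sums carries the offset. In the offset fit Atp6v1b2 and both G genes were not called, while Atp6v1b1 and both a genes stayed lower.

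The remaining subunits, which have no intercalated-cell form or are further paralogs, were called in both directions. Of 16 listed genes 15 were tested: 3 rose, 3 fell and 9 were not called, with a median of 0.20, a share of calls no higher than the 46.9% over all tested genes. Those that rose were Atp6v0b, a proteolipid of the V0 rotor ring (1.12 ± 0.22, adjusted p = 0.00485), the small V0 subunit gene Atp6v0e (0.76 ± 0.22, adjusted p = 0.0197) and Atp6v1f of the V1 rotor (0.70 ± 0.20, adjusted p = 0.0197). Those that fell were Tcirg1, which encodes the a3 form of osteoclasts (−0.91 ± 0.16, adjusted p = 0.00342), Atp6v0a2, the a form of the Golgi (−0.53 ± 0.15, adjusted p = 0.0175), and Atp6v1d of the V1 rotor (−0.50 ± 0.14, adjusted p = 0.0175). In this fit, then, all 4 genes for subunit a were lower. Atp6v1a, the catalytic A subunit and the most counted subunit gene, averaged 753 ± 33.5 CPM in controls against 837 ± 89.9 CPM after deletion (0.15 ± 0.15, adjusted p = 0.432).

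In the offset fit 1 of these subunits was higher (Atp6v0b at 1.13, adjusted p = 0.00310) and 3 were lower. Of those 3, Atp6v1d alone was also lower without the offset, and the others were the accessory subunits Atp6ap1 (−0.38) and Atp6ap2 (−0.47). Tcirg1 and Atp6v0a2 were near 0 (−0.09 and −0.11, adjusted p = 0.628 and 0.640), and Atp6v0e and Atp6v1f were not called (0.37 and 0.22, adjusted p = 0.123 and 0.237). Leaving out control 1, KO 1, KO 2 or KO 3 ended the calls of Atp6v0e and Atp6v1f (adjusted p 0.0510 to 0.0735) and left 1 subunit higher. The calls of Atp6v0a2 and Atp6v1d ended without control 1, KO 2 or KO 3 (adjusted p 0.0546 to 0.0979), which left 1 lower, while 5 were lower without control 2. In edgeR's test Atp6v0b and Tcirg1 were called in every left-out fit.

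Factors that assemble or regulate the pump gave 4 higher and 3 lower of 14 tested, with a median of −0.26, beside 22.7% higher and 24.2% lower over all tested genes. Vma21 (1.06 ± 0.18, adjusted p = 0.00301) and Tmem199 (0.92 ± 0.20, adjusted p = 0.00682), both needed to assemble V0 in the endoplasmic reticulum, rose from 58.3 ± 12.3 to 121 ± 5.8 CPM and from 21.6 ± 5.8 to 41.1 ± 2.6 CPM. Both stayed called with the offset (0.42 and 0.47, adjusted p = 0.0387 and 0.0306). Oxr1, of the TLDc family that binds the pump, also rose (0.86 ± 0.15, adjusted p = 0.00342; offset fit 0.73, adjusted p = 0.00400). Wdr7, a partner of the rabconnectins that reassemble the pump, fell (−0.86 ± 0.19, adjusted p = 0.00787; offset fit −0.31, adjusted p = 0.0732), as did Tfe3, a relative of TFEB (−0.88 ± 0.21, adjusted p = 0.00915; offset fit −0.09, adjusted p = 0.596). Without control 3, 6 genes of this list were lower, and with the offset 1 was, Dmxl1, which was not among the first 3.

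Markers of intercalated cells other than the pump were more often lower than higher in Pkd1 KO kidneys. Of 16 tested, 8 fell, 1 rose and 7 were not called, with a median of −0.60, and 8 also fell in the offset fit. Over all tested genes 24.2% were lower, and 19.5% in the offset fit. The genes were partly different: 5 fell in both (Slc4a1, Slc26a4, Rhbg, Rhcg and Aqp6), and the 1 that rose was Spink8 without the offset and Slc4a9 with it. Slc4a1, the basolateral anion exchanger of type A cells, had 48.4, 53.7 and 26.5 CPM in controls and 11.02, 8.76 and 13.2 CPM after deletion (log2 fold change −1.96 ± 0.27, adjusted p = 0.00246; offset fit −1.35, adjusted p = 0.00211). The groups were apart, and control 3 was again the lowest control. The water channel Aqp6 (−1.68 ± 0.23, adjusted p = 0.00234; offset fit −1.56) and the ammonia transporter Rhbg (−1.48 ± 0.22, adjusted p = 0.00259; offset fit −1.46) also fell. Spink8 gave 1.24 ± 0.26 (adjusted p = 0.00631), and 0.46 in the offset fit (adjusted p = 0.0693). Foxi1, named after its value was seen, averaged 21.8 ± 2.4 CPM in controls against 19.9 ± 1.2 CPM after deletion and was not called (−0.13 ± 0.14, adjusted p = 0.479; offset fit −0.31, adjusted p = 0.120). The summed level of the list was 755 to 914 CPM in controls and 645 to 674 CPM in Pkd1 KO kidneys, and none of its genes was at 0. The part that a changed number of intercalated cells had in the values of the members was not tested.

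**Figure D4:**
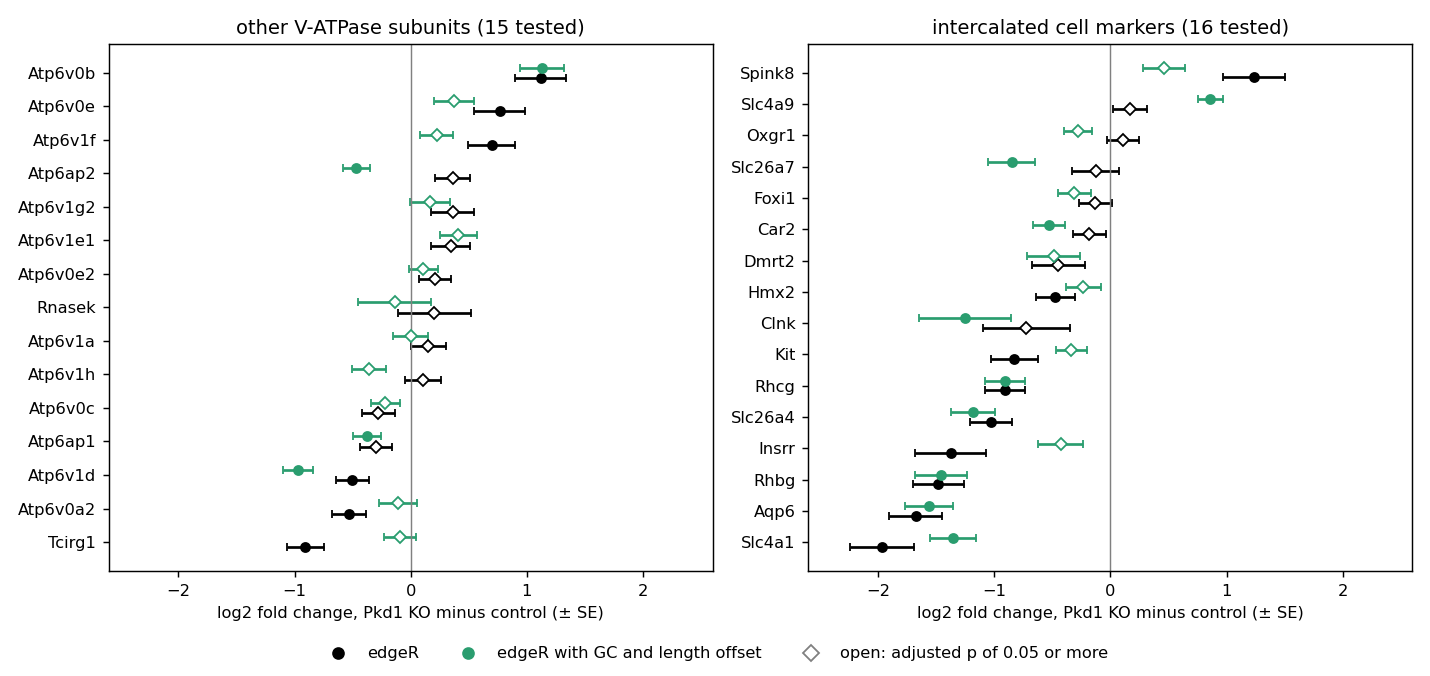
Log2 fold change with SE (n = 3 per group) of 15 other pump subunit genes and of 16 intercalated cell markers, without (black) and with (green) the offset. Atp6v0b leads the subunits and Slc4a1, Aqp6 and Rhbg the markers at the low end, and Foxi1 is not called in either fit.

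Markers of other cell types that could carry these transcripts differed as well. Their counts stand beside 24.2% lower and 22.7% higher over all tested genes, and whether any list differs from these shares was not tested. Principal cell markers, which share the collecting duct, summed to 729 to 827 CPM in controls and 473 to 612 CPM in Pkd1 KO kidneys, with 6 of 9 lower, none higher, and Avpr2 untested and at 0 in 1 control. That count was 2 without control 1, KO 1, KO 2 or KO 3. Proximal tubule markers, where a4 is also used, summed to 8755 to 14084 CPM and 5964 to 6966 CPM, with 6 of 10 lower and 1 higher (0 in the offset fit, or without control 1, control 3, KO 1 or KO 2). Macrophage and osteoclast markers, where d2 and a3 are also made, summed to 161 to 210 CPM and 256 to 381 CPM, with 7 of 13 higher (4 without KO 2) and 2 lower (1 without control 1, KO 2 or KO 3). Lyz2 rose from 23.1 ± 9.2 to 150 ± 47.2 CPM (2.70 ± 0.35, adjusted p = 0.00234; offset fit 2.06). This 1 gene made up most of the difference between the sums of its list. Csf1r fell (−1.01 ± 0.17, adjusted p = 0.00297; offset fit −0.34), and Dcstamp, which fuses osteoclasts, was at 0 in 2 controls. In the offset fit 6 principal cell and 7 proximal tubule markers were lower, and none of either list was higher. Macrophage and osteoclast markers then gave 6 higher and 2 lower, beside 15.0% and 19.5% over all genes of that fit. What these cells contributed to Atp6v0d2, Atp6v0a4 or Tcirg1 was not tested.

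Lysosomal genes, whose products work where the ubiquitous pump acidifies, included 10 of 22 that fell, 3 that rose and 9 not called, with a median of −0.34. Over all tested genes 24.2% were lower and 22.7% higher, and whether the list differs from them was not tested. Acid glucosidase Gaa (−1.88 ± 0.29, adjusted p = 0.00275; offset fit −0.92), the cholesterol transporter Npc1 (−1.20 ± 0.25, adjusted p = 0.00574; offset fit −0.77) and the saposin precursor Psap (−1.19 ± 0.18, adjusted p = 0.00259; offset fit −1.10) fell. Npc2, the soluble partner of Npc1, rose (0.78 ± 0.17, adjusted p = 0.00700; offset fit 1.08). In the offset fit 7 were lower and 2 higher, beside 19.5% and 15.0% over its genes, and without control 1 or any 1 of the Pkd1 KO kidneys 1 was higher.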

How the data were processed

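RNA was measured in 6 whole kidneys, 3 per group, grouped by sample title. Libraries were made from poly-A RNA with random primers, per the labels' protocols. The deposited values are raw read counts per gene, in 7 tables laid out as STAR's gene counts, and they are not normalized. Tools listed in the submitters' processing notes are STAR 2.6.1e, cutadapt 4.0 and FastQC 0.11.8, with build GRCm39; for the gene annotation, none is given in the sources used here. Of stranded reads 49.1% to 49.96% fell to the first strand, so unstranded counts were taken, and genes on opposite strands cannot be separated. Lines that name no gene held 22.93% to 23.84% of reads in control kidneys and 25.35% to 26.3% in Pkd1 KO kidneys, and were left out. Both runs of control 1 were summed (chi-square of 3.59 per gene between them, 26.1 to 257 between replicates, so no libraries were merged as copies). Where nothing says that the kidneys came from separate mice, p-values measure only the spread between these samples.

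Symbols, union exon lengths and GC content of the longest transcript came from GENCODE M21 (an older build, joined by identifier, 52073 of 56923 matched). Promoter windows came from RefSeq (GRCm38.p6). edgeR 4.0.16 in R 4.3.3 fitted all genes past filterByExpr, with TMM and Benjamini-Hochberg adjustment over all of them. The common biological coefficient of variation was 21.4%. SE is the absolute log2 fold change over the square root of F. The offset was a loess surface (span 0.3) of each library's centred log2 CPM on GC content and log2 length. Pair ratios used counts plus 0.5 per length, tested with scipy 1.17.1. On counts simulated for 17952 genes, 3 against 3, edgeR's test called 0 of 50 genes changed 1.5-fold and 32 of 50 changed 2-fold. The simulation gave 134 calls in all, against 8579 in the data. Its adjusted threshold was therefore the stricter, and these shares do not carry over to the reported calls. Calls at small folds may be incomplete, to a degree that the simulation cannot give.

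The members, the 8 gene lists (104 entries) and the alternatives were chosen with earlier results of these data known. The text names all members and Pkd1, could name any tested pump subunit (it gives the called ones and Atp6v1a), and takes from each list at most 3 called genes in its leading direction and 2 in the opposite one, by size of change and with a mean log2 CPM of 0 or more. Fewer were kept for some lists once values were known, and genes named to show which calls the fits share (from Slc26a4 to Dmxl1), Foxi1 and Atp12a were likewise added after seeing values. For likeness it takes the 3 genes with the highest Pearson r.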

Additional observations from a re-analysis of the deposited data

How the results depend on the processing

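Of 150 values of single members under 15 alternatives, 120 kept direction and side of the threshold, 12 kept direction and lost the call, 6 gained it, and 12 changed sign. With the offset, 4 intercalated-cell forms were lower and 0 higher, and 1 ubiquitous form was lower and 0 higher, and the same 4 counts came with a degree 1 loess (added after seeing the data) and with the replicate block and offset together. Atp6v0d2 was then −0.57, −0.55 and −0.57, and Atp6v1g3 −0.13, −0.12 and −0.12. The d ratio was −0.31 in both offset fits, and the G ratio −0.47 and −0.49. Atp6v0d1, at −0.01 in the reported fit, was 0.15 with upper-quartile scaling, 0.008 with the replicate block, and with 1 kidney left out 0.0082 (control 1), 0.054 (control 3), 0.010 (KO 2) or 0.030 (KO 3) (−0.18 to 0.05 over all left-out kidneys). Ubiquitous forms lower numbered 1 with upper-quartile scaling, no filter or the replicate block, and higher ones 2 with upper-quartile scaling. That scaling moved the median of all genes from 0.03 to 0.19, the higher share of all calls from 48.4% to 60.5%, and left 1 other subunit lower; other subunits higher numbered 1 in the 3 offset fits.

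Leaving out 1 kidney gave 2 to 3 intercalated-cell forms lower and 1 higher, 1 to 2 ubiquitous forms lower and 1 to 2 higher, 1 to 5 other subunits lower and 1 to 4 higher, and from 5071 to 10318 calls over all genes. Same-numbered kidneys did not deviate together (r of 0.0383, −0.0843 and −0.0291). With 3 kidneys per group these values cannot show that the numbers carry no pairing. With the replicate block Atp6v1b2 was −0.50 (adjusted p = 0.0564), and calls over all genes numbered 7397 in place of 8579. Left-out ratio differences ran from −1.63 to −1.06 (B), 0.12 to 0.27 (d), −0.27 to −0.17 (G), 0.74 to 1.21 (a) and −0.72 to −0.55 (C). With 3 kidneys per group no permutation p can pass 0.05.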

Other observations

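The H+/K+-ATPases, a separate family of proton pumps that intercalated cells also use to secrete acid and retain potassium, differed in opposite directions. Atp4a, the gastric form, had 45.7, 58.2 and 37.99 CPM in controls and 8.77, 9.30 and 6.68 CPM in Pkd1 KO kidneys, a log2 fold change of −2.52 ± 0.21 (edgeR's quasi-likelihood test, adjusted p = 0.00164; offset fit −2.07). Atp12a, the colonic form, was named after its values were seen. It was scarce, at 0.0777, 0.432 and 0.202 CPM in controls and 0.748, 1.13 and 0.868 CPM after Pkd1 deletion (log2 fold change 1.92 ± 0.52, adjusted p = 0.0155; offset fit 1.84, adjusted p = 0.0209). That call was lost without KO 2 (1.74, adjusted p = 0.0674).

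As a description over 6 kidneys, the genes whose log2 CPM followed Atp6v1b1 most closely were Irgq, Dstyk and Scaf1. Hrct1, Coch and Abcd2 were closest to Atp6v0d2, the pseudogene Rps16-ps2 with Apoo and Cox6c to Atp6v1g3, and Pomt2, Psap and Ntn4 to Atp6v0a4. The nearest to Atp6v1c2 were AC090881.2, Surf6 and Spint2. Correlations above 0.95 were reached by 2636 genes for Atp6v1b1, 2469 for Atp6v1g3 and 2056 for Atp6v0a4, against 390 for Atp6v0d2 and 17 for Atp6v1c2, all over kidneys that share the difference between the groups.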
